A study of Mus musculus with 11 samples.

Results

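The PERK-ATF4-CHOP branch of the unfolded protein response was followed in mouse hepatocytes through 10 genes, *Atf4*, *Ddit3* (which encodes CHOP), *Atf3*, *Atf5*, *Nupr1*, *Trib3*, *Chac1*, *Ppp1r15a*, *Sesn2* and *Ddit4*. The genes were taken by name from a table of 54232 Ensembl gene identifiers, named by the GENCODE M21 annotation, and all 10 were found. They and the gene lists below were chosen with earlier results of these data known. Shares of all genes given beside them are therefore descriptions and not tests. All 10 also passed the filter on low counts that left 13303 genes to be tested. Each was compared between genotypes and diets, library by library.

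PERK is a kinase of the endoplasmic reticulum membrane that phosphorylates the translation factor eIF2alpha when unfolded proteins gather in the lumen. General protein synthesis then falls, while the *Atf4* mRNA is translated more, because of reading frames upstream of its coding sequence. ATF4 pairs with C/EBP family proteins and raises *Ddit3*, *Atf3*, *Trib3* and genes of amino acid supply, and the branch runs beside the IRE1-XBP1 branch, which in hepatocytes maintains the secretory machinery.

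RNA from isolated hepatocytes of adult male mice of a C57BL/6 background was sequenced in 11 libraries. Mice that lack XBP1 in the liver (*Xbp1*LKO, in which the albumin promoter drives Cre and so deletes the floxed exon in hepatocytes) were set against floxed controls without the deletion (*Xbp1* fl/fl). Both genotypes were kept on standard chow or on the HFS diet (high in fat and sugar), a Western diet with fructose and glucose in the drinking water, for up to 6 weeks. There were 3 libraries of chow-fed *Xbp1* fl/fl, 2 of chow-fed *Xbp1*LKO, 3 of HFS-fed *Xbp1* fl/fl and 3 of HFS-fed *Xbp1*LKO mice. Each HFS library pooled 2 mice and so averages over them, which is not described for the chow libraries. Total counts were 19191032 to 23888401 per library. Levels are given as CPM, the count relative to the library total, after TMM scaling. A chi-square over its degrees of freedom of 26.3 to 95.96 between replicates shows a spread far beyond counting error, so that libraries and not depth set the precision of all but the lowest values.

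The targeted gene and the cell type were checked first. *Xbp1* gave 194.4, 200.3 and 221.2 CPM in chow-fed and 301.2, 294.6 and 242.3 CPM in HFS-fed *Xbp1* fl/fl libraries. With the deletion it gave 95.7 and 128.2 CPM on chow and 116.9, 97.3 and 134.7 CPM on the HFS diet. Every *Xbp1*LKO library was below every control, although the floxed exon is not resolved by a single count for the whole gene. The log2 fold change was -0.87 on chow (SE 0.18, edgeR adjusted p = 0.018) and -1.26 on the HFS diet (SE 0.16, edgeR adjusted p = 0.0025), and on chow the adjusted p was 0.092 and 0.059 in edgeR without the first and without the second *Xbp1*LKO library. The 25 hepatocyte markers together made 86760 to 228400 CPM, against 163 CPM at most for any list of other liver cells. *Alb*, the most abundant hepatocyte marker, gave 14020 CPM at its lowest, in the second chow-fed *Xbp1*LKO library, and 119400 CPM at its highest. In bulk RNA, fewer cells of a type and less RNA per cell cannot be told apart.

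The second chow-fed *Xbp1*LKO library stood apart from the first. It was the higher of the pair for 10 of the 10 genes, with a ratio of 6.59 for *Atf3*, 5.62 for *Ddit3*, 4.52 for *Nupr1* and 4.07 for *Ddit4*. Of 11130 tested genes with at least 1 CPM, 0.422% had a ratio over 4 between these libraries and 0.377% a ratio under 0.25, and the median ratio was 1.005. Which of the 2 libraries is the unusual one cannot be told from them alone. Results on chow are therefore given with and without the second library, and for some genes and lists also without the first. With the remaining library alone, that group has no spread of its own and was assumed to vary like the other groups.

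Short stretches of promoter show the site that ATF4 and its C/EBP partners can share. RefSeq windows on GRCm38.p6 of 250 bases before and 50 from the transcription start were searched on both strands for the composite site TGATGNAA. It was found in 4 of 11 windows of the 10 genes (*Atf5* has 2 starts), against 3.97% of 32851 windows of all genes. The matches lay in *Atf3*, *Nupr1*, *Chac1* and *Trib3*, each with the motif on the strand opposite to the gene. The lines below give 30 bases of the gene's strand, 5′ to 3′, with the match in capitals.
Atf3: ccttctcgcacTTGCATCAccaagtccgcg
Nupr1: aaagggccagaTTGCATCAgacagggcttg
Chac1: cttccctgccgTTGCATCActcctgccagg
Trib3: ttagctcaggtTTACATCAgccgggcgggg
The *Atf3* match began 110 bases before the start (chr1:191183425-191183454, minus strand), and that of *Nupr1* also 110 bases before (chr7:126625562-126625591, minus strand). In *Chac1* it began 193 bases before (chr2:119351038-119351067, plus strand), and in *Trib3* at base 15 after the start, which counts as base 1 (chr2:152344028-152344057, minus strand). *Atf3*, *Nupr1* and *Chac1* carry the same 8 letters, and *Trib3* differs from them within the stretch only at the free base N of the motif. The core of the cAMP response element, TGACGT, was found in the windows of *Atf3* and *Ppp1r15a*, against 7.51% of all windows. In *Ppp1r15a* matches on both strands overlap in a palindrome, shown in capitals (chr7:45526262-45526291, minus strand).
Ppp1r15a: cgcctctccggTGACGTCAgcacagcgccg
The letters CCAAT were found in 7 of the 11 windows (37.41% of all windows) and CCACG also in 7 (32.77%), the letters at the ends of the element to which other factors of the unfolded protein response bind. A match is a description of letters, not a bound site.

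*Atf4*, the factor at the head of the branch, was nearly level at the RNA. It gave 94.3, 84.5 and 93.1 CPM in chow-fed *Xbp1* fl/fl and 95.8 and 104.4 CPM in chow-fed *Xbp1*LKO libraries. On the HFS diet it gave 71.5, 74.2 and 69.0 CPM in *Xbp1* fl/fl and 85.0, 72.3 and 86.7 CPM in *Xbp1*LKO libraries. The *Xbp1*LKO libraries lay just above the controls on chow and overlapped them on the HFS diet. The log2 fold change was 0.14 (SE 0.11, edgeR adjusted p = 0.544) on chow and 0.18 (SE 0.10, edgeR adjusted p = 0.3995) on the HFS diet. Neither passed the threshold, which is an adjusted p of 0.05 throughout, and without the second chow-fed *Xbp1*LKO library the chow value was 0.08 (SE 0.14). With unscaled library totals *Atf4* was called higher on both diets, but that scaling moved the median of all genes by 0.33 on chow and 0.27 on the HFS diet, against 0.00 and 0.01 with TMM.

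*Ddit3* encodes CHOP, a C/EBP family factor that ATF4 raises and that is known for its part in cell death under lasting stress. The gene spans chr10:127290774-127296288 (GRCm38, plus strand). Its values were 4.52, 5.895 and 6.67 CPM in chow-fed *Xbp1* fl/fl and 23.6 and 132.5 CPM in chow-fed *Xbp1*LKO libraries. With HFS feeding they were 5.10, 2.95 and 4.996 CPM in *Xbp1* fl/fl and 15.85, 13.5 and 44.5 CPM in *Xbp1*LKO libraries. Every *Xbp1*LKO library was above every control on either diet, and the controls of both diets lay in the same range. The fold was 13.7 on chow (log2 fold change 3.77, SE 0.66, edgeR adjusted p = 0.0098) and 5.64 on the HFS diet (2.50, SE 0.62, edgeR adjusted p = 0.048). Without the second chow-fed *Xbp1*LKO library the chow value was 2.04 (SE 0.53, edgeR adjusted p = 0.12) and no longer passed. The HFS call held in 8 of 18 alternatives, with log2 fold changes of 1.75 to 2.79, and was lost on leaving out any control library of either diet or either of the second and the third HFS-fed *Xbp1*LKO libraries, with a filter of 1 CPM on the mean, and with a replicate block. The 3′ end of *Ddit3* overlaps the antisense gene *Mars* (127296221 to 127296288), as the spans of *Atf5* and *Ppp1r15a* overlap antisense *Nup62* and *Tulp2*. The paper names a stranded library kit, but without a known strand setting of the counting, reads there cannot be assigned. A second *Ddit3* identifier of 105 bases inside the gene had 0 counts in every library.

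*Atf3*, a stress factor of the ATF/CREB family, separated the genotypes too. It gave 0.4965, 1.21 and 0.946 CPM in chow-fed *Xbp1* fl/fl and 6.53 and 43.0 CPM in chow-fed *Xbp1*LKO libraries. The HFS diet gave 0.953, 0.611 and 0.686 CPM in controls and 6.72, 3.235 and 9.43 CPM with the deletion. The groups did not overlap, and the control values rest on only 9 to 21 counts per library. The log2 fold change was 4.80 on chow (SE 0.72, edgeR adjusted p = 0.0052), 2.87 without the second chow-fed *Xbp1*LKO library (SE 0.52, edgeR adjusted p = 0.045), and 3.09 on the HFS diet (SE 0.69, edgeR adjusted p = 0.030). The chow call held in 18 of 18 alternatives and the HFS call in 13. The HFS call was lost without any of the 3 HFS-fed control libraries and without either of the first and the third HFS-fed *Xbp1*LKO libraries.

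*Nupr1*, which encodes a small nuclear stress protein, was almost silent in the controls. It had 4, 5 and 7 counts in chow-fed and 3, 3 and 4 counts in HFS-fed *Xbp1* fl/fl libraries, at most 0.3485 CPM. With XBP1 deleted it reached 10.45 and 47.3 CPM on chow and 3.79, 4.87 and 21.35 CPM on the HFS diet. This was the widest separation among the 10 genes, with every *Xbp1*LKO library over 10 times the highest control. Summed over libraries, 1327 counts stood against 16 on chow and 781 against 10 on the HFS diet, ratios of CPM of 99.4 and 61.5. These sizes rest on single libraries, since the chow-fed libraries alone were 36.5 and 165.3 times the control mean and the HFS-fed ones 23.1, 29.7 and 130.3 times. In log2 terms the fold change was 6.62 on chow (SE 0.93) and 5.15 without the second *Xbp1*LKO library (SE 0.84), and on the HFS diet 5.89 (SE 0.98) and 4.68 without the third (SE 0.71). The edgeR adjusted p was 0.0045 on chow and 0.0079 on the HFS diet, and 0.034 on chow without the second *Xbp1*LKO library. Both calls held in 18 of 18 alternatives. Without the first chow-fed *Xbp1*LKO library the chow value was 7.33.

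*Atf5* encodes another factor translated under eIF2alpha phosphorylation and was the most abundant of the 10 genes per length. It gave 313.6, 250.7 and 248.5 CPM in chow-fed *Xbp1* fl/fl and 268.0 and 835.6 CPM in chow-fed *Xbp1*LKO libraries. The HFS diet gave 179.6, 241.6 and 203.1 CPM without and 284.7, 310.3 and 433.5 CPM with the deletion. The chow groups overlapped, with the first *Xbp1*LKO library inside the control range, and the HFS groups did not. The log2 fold change was 1.03 (SE 0.36, edgeR adjusted p = 0.139) on chow and 0.72 (SE 0.33, edgeR adjusted p = 0.285) on the HFS diet. Without the second chow-fed *Xbp1*LKO library the chow value was -0.02, and without the first it was 1.62.

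**Figure D1:**
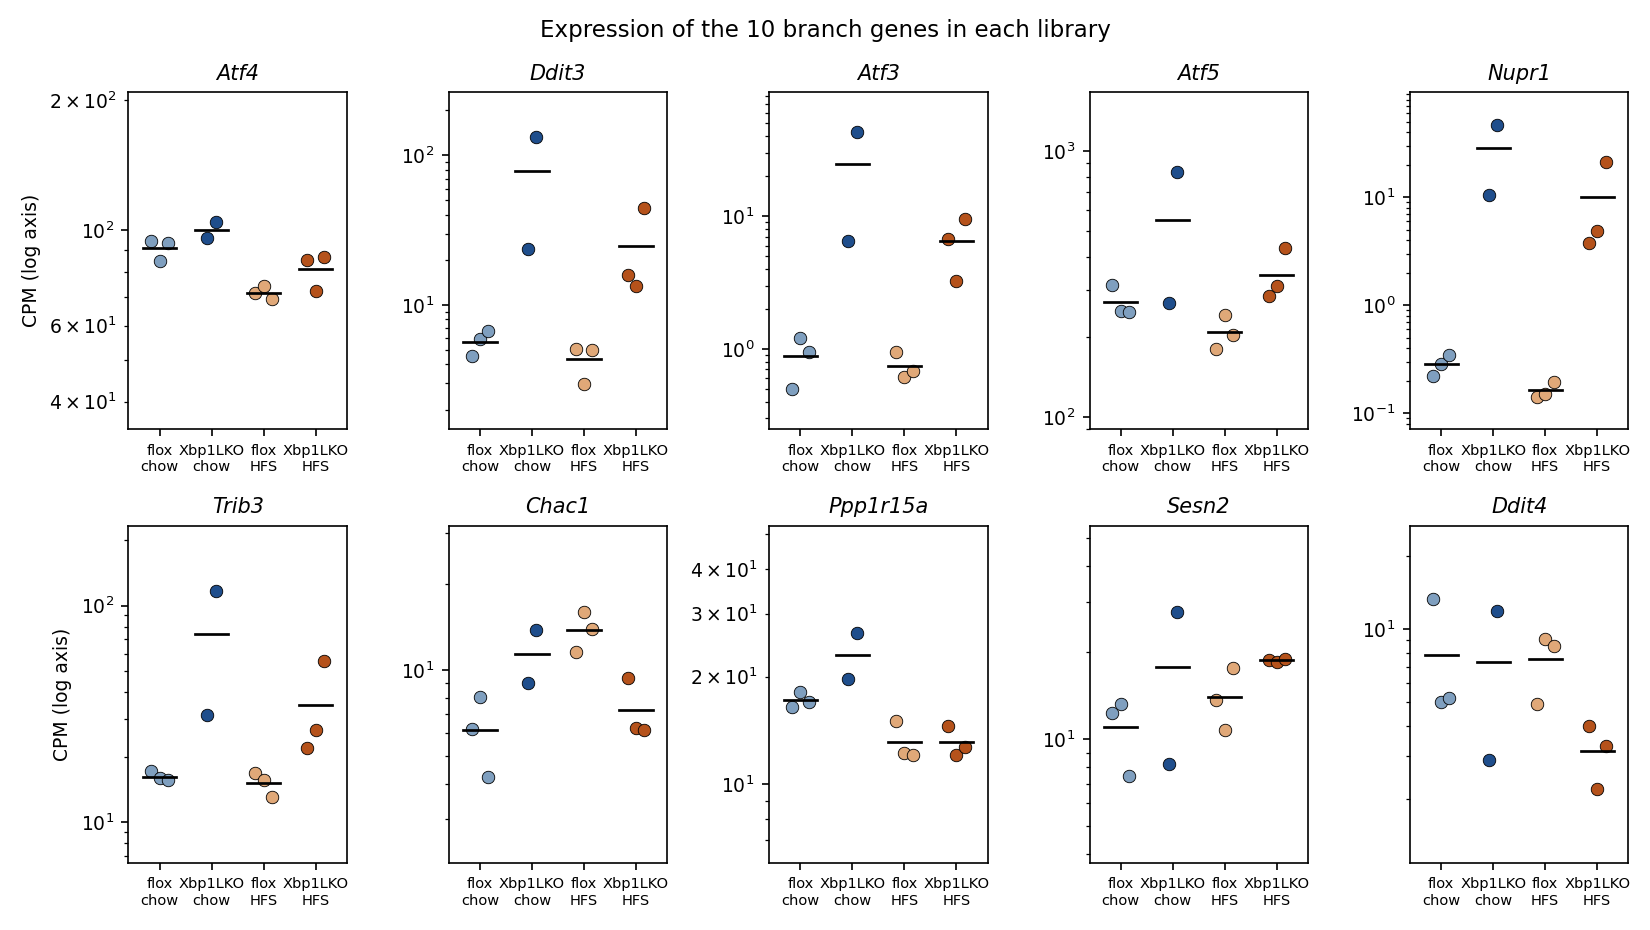
Expression of the 10 genes in each of the 11 libraries, as CPM after TMM scaling on a log axis with its own range in each panel. Points are libraries and bars are group means (n = 3, 2, 3 and 3). *Ddit3*, *Atf3* and *Nupr1* were higher in every *Xbp1*LKO library than in every control, while *Atf4* stayed between 69.0 and 104.4 CPM.

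Among the effectors, *Trib3*, a pseudokinase that feeds back on ATF4 and CHOP, was higher in *Xbp1*LKO hepatocytes. It gave 17.2, 15.95 and 15.7 CPM in chow-fed and 17.0, 15.7 and 13.0 CPM in HFS-fed *Xbp1* fl/fl libraries. *Xbp1*LKO libraries gave 31.1 and 117 CPM on chow and 22.0, 26.7 and 55.3 CPM on the HFS diet. All 5 *Xbp1*LKO libraries were above all 6 controls. The log2 fold change was 2.19 on chow (SE 0.47, edgeR adjusted p = 0.023), 0.93 without the second *Xbp1*LKO library (edgeR adjusted p = 0.394), and 1.19 on the HFS diet (SE 0.43, edgeR adjusted p = 0.167). The chow call was also lost without any of the 3 chow-fed control libraries and with only the groups compared. *Ddit3*, *Atf3*, *Nupr1* and *Trib3* are the members for which no *Xbp1*LKO library reached down to any control; the same holds for 3.19% of the genes tested.

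*Chac1* encodes an enzyme that degrades glutathione and is a known target of ATF4. It gave 6.23, 8.03 and 4.23 CPM in chow-fed *Xbp1* fl/fl and 9.002 and 13.8 CPM in chow-fed *Xbp1*LKO libraries. With HFS feeding the order was turned, with 11.6, 16.0 and 13.9 CPM in *Xbp1* fl/fl and 9.33, 6.25 and 6.17 CPM in *Xbp1*LKO libraries. The groups did not overlap on either diet. The log2 fold change was 0.89 (SE 0.29, edgeR adjusted p = 0.107) on chow and -0.93 (SE 0.26, edgeR adjusted p = 0.069) on the HFS diet. The chow value was 0.55 without the second *Xbp1*LKO library (SE 0.34, edgeR adjusted p = 0.653). The interaction, which tests the difference between the diets, was -1.82 (SE 0.38), with an unadjusted p of 5.4e-04 that did not pass after adjustment over all genes (edgeR adjusted p = 0.603). Groups that do not overlap on either diet, higher on chow and lower on the HFS diet, were found for 0.398% of genes.

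*Ppp1r15a* encodes GADD34, the inducible subunit of the phosphatase that removes the phosphate from eIF2alpha. It gave 16.5, 18.15 and 17.0 CPM in chow-fed *Xbp1* fl/fl and 19.7 and 26.4 CPM in chow-fed *Xbp1*LKO libraries. HFS feeding gave 15, 12.3 and 12.1 CPM in *Xbp1* fl/fl and 14.6, 12.1 and 12.7 CPM in *Xbp1*LKO libraries. The *Xbp1*LKO libraries lay above the controls on chow only, where the log2 fold change of 0.42 did not pass (SE 0.15, edgeR adjusted p = 0.149) and was 0.19 without the second *Xbp1*LKO library (SE 0.17). With HFS feeding the groups overlapped and the value was 0.0001 (SE 0.14).

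*Sesn2* and *Ddit4*, whose proteins restrain mTORC1 signalling, did not pass in any genotype comparison in the fit to all libraries. *Sesn2* gave 12.3, 13.3 and 7.47 CPM in chow-fed *Xbp1* fl/fl against 8.19 and 27.5 CPM in *Xbp1*LKO libraries, and 13.7, 10.7 and 17.6 CPM against 18.8, 18.6 and 18.9 CPM on the HFS diet. *Ddit4* gave 13.3, 5.03 and 5.23 CPM against 2.90 and 11.8 CPM on chow, and 4.91, 9.11 and 8.52 CPM against 3.99, 2.19 and 3.30 CPM on the HFS diet. On chow both groups were spread over each other, while on the HFS diet *Sesn2* was above and *Ddit4* below every control. The chow log2 fold changes were 0.70 for *Sesn2* (SE 0.40) and -0.0953 for *Ddit4* (SE 0.56), and without the second *Xbp1*LKO library -0.43 (SE 0.32) and -1.44 (SE 0.61), with the sign of *Sesn2* turned. The HFS log2 fold changes were 0.42 for *Sesn2* (SE 0.36, edgeR adjusted p = 0.621) and -1.25 for *Ddit4* (SE 0.52, edgeR adjusted p = 0.236).

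**Figure D2:**
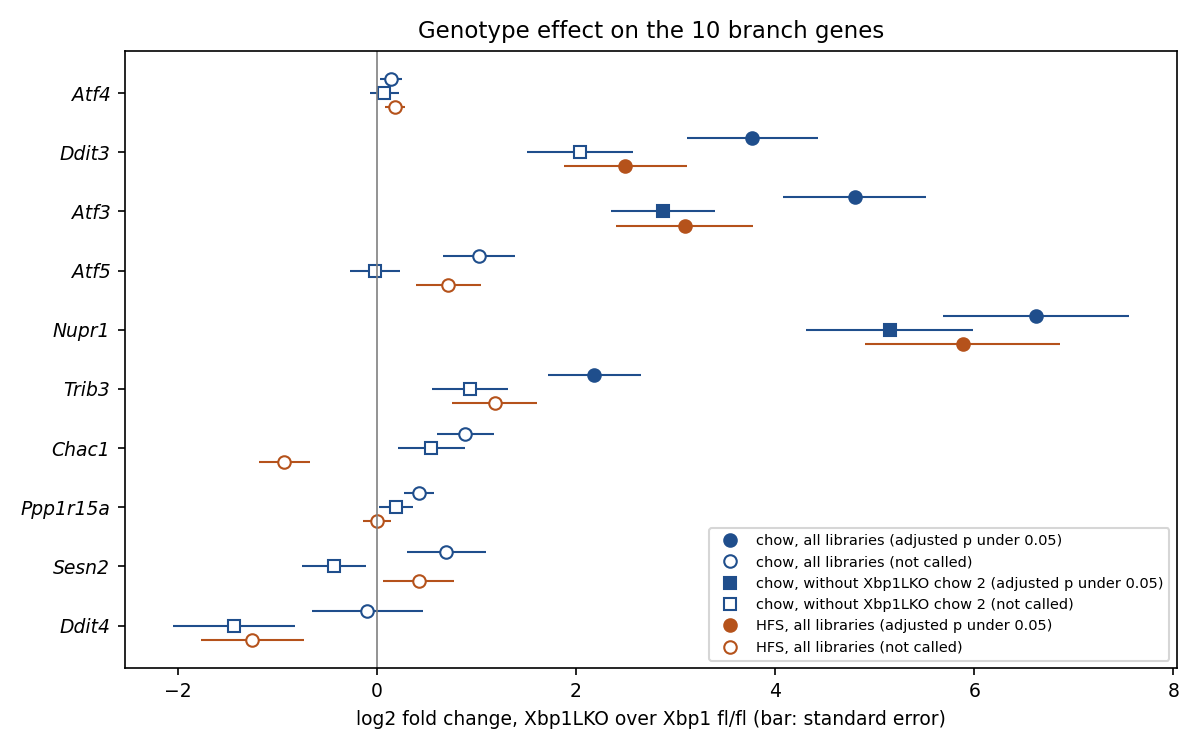
Genotype effect on each of the 10 genes, as the log2 fold change of *Xbp1*LKO over *Xbp1* fl/fl with its standard error, from edgeR. Circles are the fits to all libraries on chow (blue) and the HFS diet (orange), squares the chow fit without the second chow-fed *Xbp1*LKO library, and filled symbols passed an adjusted p of 0.05. Leaving out that library took *Ddit3* from 3.77 to 2.04 and *Atf5* from 1.03 to -0.02. Leaving out the first chow-fed *Xbp1*LKO library instead, which is not drawn, took *Atf5* to 1.62.

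On chow, 4 of the 10 genes passed as higher in *Xbp1*LKO hepatocytes (*Ddit3*, *Atf3*, *Nupr1* and *Trib3*) and 0 as lower. Of all genes tested, 4.75% passed, 1.73% as higher. On the HFS diet 3 passed as higher (*Ddit3*, *Atf3* and *Nupr1*), against 4.08% of all genes, 1.92% as higher. Averaged over both diets 5 passed as higher, these 4 and *Atf5*, against 11.9% of all genes, 5.25% as higher. The *Atf5* call held in 9 of 17 alternatives and was lost without the second chow-fed *Xbp1*LKO library, where its log2 fold change went from 0.87 to 0.35 (edgeR adjusted p = 0.253) and 4 passed. Groups that did not overlap, higher in *Xbp1*LKO, were found for 7 of the 10 genes on chow (15.4% of all genes) and 6 on the HFS diet (13.6%), and lower for 2 on the HFS diet (12.5%). The median log2 fold change of the 10 genes was 0.96 on chow and 0.57 on the HFS diet, beside medians of 0.00 and 0.01 over all genes. Without the second chow-fed *Xbp1*LKO library 2 genes passed on chow, *Atf3* and *Nupr1*, against 0.498% of all genes, and their median was 0.37; the HFS comparison then called 5, with *Trib3* and *Atf5* added, against 4.78% of all genes. With the first chow-fed *Xbp1*LKO library left out instead, 6 passed on chow, with *Atf5* and *Sesn2* added, against 5.48% of all genes.

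The *Xbp1*LKO libraries of a group stood at unequal distances from the controls of their diet. The first chow-fed library was 4.14 times the control mean for *Ddit3*, 7.37 times for *Atf3* and 1.91 times for *Trib3*. The second chow-fed library was 23.3, 48.55 and 7.19 times the control mean for the same genes. HFS-fed libraries were 3.645, 3.095 and 10.2 times the control mean for *Ddit3*. The third HFS-fed library was the highest of its group for 7 of the 10 genes, and for *Ddit3* the other two lay near the first chow-fed library. *Atf4* showed no such spread, at 1.01 to 1.21 times the control mean in all 5 libraries.

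**Figure D3:**
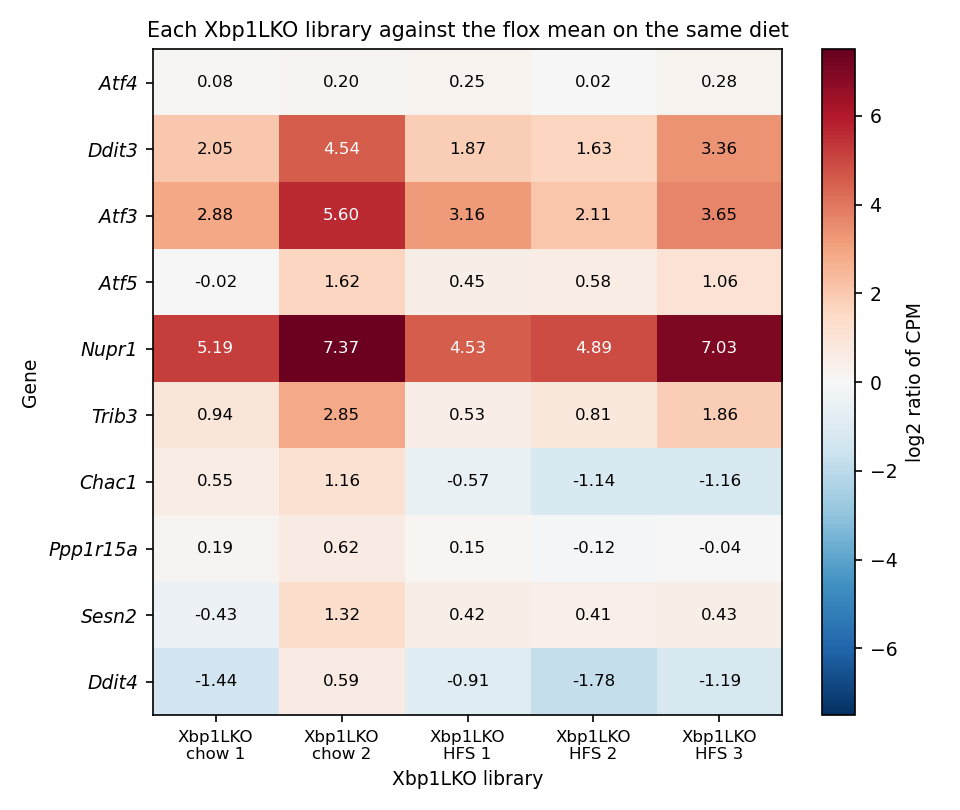
Log2 ratio of CPM in each *Xbp1*LKO library (columns) to the mean of the *Xbp1* fl/fl libraries on the same diet, for each gene (rows); red is higher and blue lower than the controls. For *Ddit3*, *Atf3*, *Nupr1*, *Trib3* and *Atf5* the second chow-fed and the third HFS-fed libraries hold the highest ratios, 4.54 and 3.36 for *Ddit3*, while for *Chac1* the third HFS-fed library is the lowest, at -1.16, and *Atf4* stays between 0.02 and 0.28.

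Levels per length of exon order the 10 genes within a group. In chow-fed *Xbp1* fl/fl hepatocytes the order of mean CPM per kilobase was *Atf5* (135.9), *Atf4* (38.4), *Trib3* (7.66), *Ppp1r15a* (5.86), *Ddit4* (4.47), *Chac1* (3.77), *Ddit3* (3.33), *Sesn2* (3.17), *Atf3* (0.411) and *Nupr1* (0.114). From *Ppp1r15a* to *Sesn2* each gene overlapped its neighbour in single libraries. In chow-fed *Xbp1*LKO hepatocytes *Ddit3* stood right after *Atf5*, at 45.55 CPM per kilobase, with libraries that overlapped those of *Atf4* (42.45). With HFS feeding *Ddit3* stood between *Sesn2* (4.03 CPM per kilobase) and *Atf3* (0.348) in controls, at 2.54, and between *Trib3* and *Sesn2* (5.398) in *Xbp1*LKO hepatocytes, at 14.4, where its libraries overlapped those of *Trib3* (16.3). *Nupr1* was last in both control groups.

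The diet comparisons ask whether HFS feeding moved the branch within a genotype. None of the 10 genes passed in *Xbp1* fl/fl hepatocytes, where 0.428% of all genes did, nor in *Xbp1*LKO hepatocytes (0.0601%), nor in the interaction of genotype and diet (0.0%). At an unadjusted p under 0.05, 816 of 13303 genes passed the interaction, and DESeq2 called 31 genes at an adjusted p of 0.05. The largest value in controls was that of *Chac1*, with all 3 HFS-fed libraries above the chow range, which did not pass (log2 fold change 1.17, SE 0.26, edgeR adjusted p = 0.109). In *Xbp1* fl/fl hepatocytes 4 of the 10 genes were lower without overlap on the HFS diet (*Atf4*, *Atf5*, *Ppp1r15a* and *Nupr1*, the last at 3 to 7 counts), as were 7.34% of all genes, and *Chac1* was higher, as were 6.33%. In *Xbp1*LKO hepatocytes 2 were lower without overlap (*Atf4* and *Ppp1r15a*), as were 14.4% of all genes. *Atf4* was lower in every HFS-fed than in every chow-fed library within each genotype, by a log2 fold change of -0.34 in *Xbp1* fl/fl (edgeR adjusted p = 0.3002) and -0.30 in *Xbp1*LKO hepatocytes (edgeR adjusted p = 0.314). *Ppp1r15a* was likewise lower within each genotype (-0.39, SE 0.14, edgeR adjusted p = 0.418 in *Xbp1* fl/fl and -0.81, SE 0.15, edgeR adjusted p = 0.1075 in *Xbp1*LKO hepatocytes). *Ddit3* stood at -1.66 in *Xbp1*LKO hepatocytes (SE 0.60, edgeR adjusted p = 0.297), and at 0.07 without the second chow-fed library. The 4 comparisons within a diet or a genotype share their libraries, so their values are not independent of each other.

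The kinases that feed the branch gave no called rise at the RNA. *Eif2ak3*, which encodes PERK, gave 15.2, 15.7 and 12.65 CPM in controls and 10.4 and 18.7 CPM in *Xbp1*LKO hepatocytes on chow. Over the 6 HFS-fed libraries it gave 11.9 to 16.7 CPM. *Eif2ak2* (PKR) and *Eif2ak4* (GCN2), which sense double-stranded RNA and missing amino acids, did not pass either. *Eif2ak1* (HRI, a sensor of haem) was called lower when both diets were averaged (log2 fold change -0.31, SE 0.07, edgeR adjusted p = 0.019). *Ppp1r15b* encodes CReP, the constant counterpart of GADD34 in the eIF2alpha phosphatase. It gave 124.9, 158.3 and 133.8 CPM in chow-fed and 161.3, 133.2 and 147.3 CPM in HFS-fed *Xbp1* fl/fl libraries, and 73.2 to 88.2 CPM over the 5 *Xbp1*LKO libraries. All of these were below all controls, with log2 fold changes of -0.83 (SE 0.14, edgeR adjusted p = 0.0074) on chow and -0.78 (SE 0.12, edgeR adjusted p = 0.0054) on the HFS diet. Of 15 genes for the eIF2alpha kinases, the subunits of eIF2 and eIF2B and the phosphatase, *Ppp1r15b* was the only one called on chow or on the HFS diet in the fit to all libraries (3.02% and 2.16% of all genes were called lower), and without the second chow-fed *Xbp1*LKO library none was called on chow, where 0.498% of all genes were, with *Ppp1r15b* at -0.74 (SE 0.17, edgeR adjusted p = 0.095). Averaged over diets 3 were called lower, beside 6.64% of all genes, these being *Ppp1r15b*, *Eif2ak1* and *Dnajc3*, which encodes an inhibitor of PERK and PKR (-0.70, SE 0.15, edgeR adjusted p = 0.013).

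ATF4 is best known outside the branch for genes that bring in or make amino acids. Of 19 such genes 17 were tested, and 7 passed as higher on chow, 5 on the HFS diet and 8 averaged over diets, with 0 lower in each, where 1.73%, 1.92% and 5.25% of all genes passed as higher. The median log2 fold change was 1.08 on chow and 1.64 on the HFS diet. *Psat1*, of serine synthesis, gave 0.809 to 0.883 CPM in chow-fed and 0.356 to 0.490 CPM in HFS-fed *Xbp1* fl/fl libraries. In *Xbp1*LKO libraries it gave 5.63 and 18.5 CPM on chow and 2.12, 3.64 and 9.66 CPM on the HFS diet. It was called on chow (3.83, SE 0.63, edgeR adjusted p = 0.0074) and on the HFS diet (3.58, SE 0.65, edgeR adjusted p = 0.011). *Asns*, asparagine synthetase, gave 15.4, 17.3 and 8.71 CPM against 100.6 and 152.4 CPM on chow, and 5.57, 14.2 and 1.37 CPM against 23.6, 43.7 and 86.4 CPM on the HFS diet. The groups did not overlap on either diet, and both differences passed (3.20, SE 0.68, edgeR adjusted p = 0.022 and 2.87, SE 0.65, edgeR adjusted p = 0.033). The amino acid transporters *Slc1a4* (1.77 on chow and 2.03 on the HFS diet) and *Slc1a5* (3.10 and 2.72) passed on both diets as well, and *Slc7a1* (2.97), *Slc7a5* (2.30) and *Slc3a2* (1.08) on chow; the HFS calls also held *Mthfd2* (1.73), of mitochondrial folate metabolism. *Slc1a5*, *Slc7a5*, *Slc3a2* and *Mthfd2* were named after their values were seen. Without the second chow-fed *Xbp1*LKO library the list had 0 calls on chow, with a median of 0.54, and 6 on the HFS diet; without the first it had 8 and 6. Of all genes, 0.498% and 4.78% were called without the second library and 5.48% and 4.75% without the first.

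Of the 12 cytosolic tRNA synthetases, also known ATF4 targets, 1 was called lower on chow (*Tars*, log2 fold change -0.59, edgeR adjusted p = 0.037) and 0 higher, and on the HFS diet none was called, beside 4.75% and 4.08% of all genes. Averaged over diets 3 were called, beside 11.9% of all genes, and of these *Aars* (0.48, edgeR adjusted p = 0.012) and *Sars* (0.44, edgeR adjusted p = 0.028) were higher and *Tars* (-0.41, edgeR adjusted p = 0.016) lower. Their median was 0.08 on chow and 0.17 on the HFS diet, against 1.08 and 1.64 for the genes of amino acid supply; the difference between the lists was not tested. Without the second chow-fed *Xbp1*LKO library 0 were called on chow, and without the first 2 were higher and 0 lower (0.498% and 5.48% of all genes called).

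Of 16 further targets of ATF4 and CHOP in signalling and cell death, 12 were tested, with 2 higher on chow, 1 on the HFS diet, and 4 higher and 1 lower averaged over diets. Of all genes 1.73%, 1.92% and 5.25% were higher in these comparisons, and 6.64% lower in the last. *Tnfrsf10b*, which encodes the death receptor DR5, had 3 to 6 counts in each of the 6 *Xbp1* fl/fl libraries. In *Xbp1*LKO libraries it had 15 and 35 counts on chow and 31, 36 and 16 on the HFS diet. No library of one genotype reached the other, at log2 fold changes of 2.17 on chow (SE 0.55, edgeR adjusted p = 0.045) and 1.92 on the HFS diet (SE 0.49, edgeR adjusted p = 0.051). *Vldlr*, a lipoprotein receptor, was called on chow (3.19, SE 0.70, edgeR adjusted p = 0.025), and *Bcl2l11*, which encodes the death-promoting protein BIM, on the HFS diet (0.78, SE 0.17, edgeR adjusted p = 0.026). *Fgf21*, a hormone of the fasted and stressed liver, gave 0.764 to 1.175 CPM in HFS-fed *Xbp1* fl/fl and 2.57 to 11.04 CPM in HFS-fed *Xbp1*LKO libraries, without passing (2.82, SE 0.72, edgeR adjusted p = 0.051). Without the second chow-fed *Xbp1*LKO library this list had 0 calls on chow and 3 on the HFS diet (0.498% and 4.78% of all genes).

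Of 25 known targets of XBP1 and ATF6, the factors of the neighbouring branches, 6 were called lower on chow and 3 on the HFS diet, against 3.02% and 2.16% of all genes, and 0 higher. Their medians were -0.22 and -0.53, and 9 of the 25 had a value above 0 on chow and 3 on the HFS diet. *Sec61b*, of the translocation pore, gave 24.2 to 29.6 CPM in the 6 *Xbp1* fl/fl libraries and 8.18 to 17.1 CPM in the 5 *Xbp1*LKO libraries (-1.46, SE 0.24, edgeR adjusted p = 0.0073 on chow and -1.16, SE 0.20, edgeR adjusted p = 0.00995 on the HFS diet). *Sec61a1*, of the same pore, was also called on both diets (-1.05 and -0.90), as was *Edem1*, of degradation of misfolded proteins (-0.74 and -0.83). The chaperone *Hspa5*, named after its values were seen, overlapped between genotypes on chow, with 785.6 and 2639 CPM in *Xbp1*LKO libraries on chow against 795.5, 1238 and 1685 CPM in their controls. The list summed to 12020 CPM in the second chow-fed *Xbp1*LKO library, the highest of the 11 libraries, and to 5228 CPM in the first. Without the second library, 0 of the 25 were called on chow, at a median of -0.88, and 6 on the HFS diet (0.498% and 4.78% of all genes). Without the first, 2 were called higher and 3 lower on chow (5.48% of all genes called), at a median of 0.11.

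**Figure D4:**
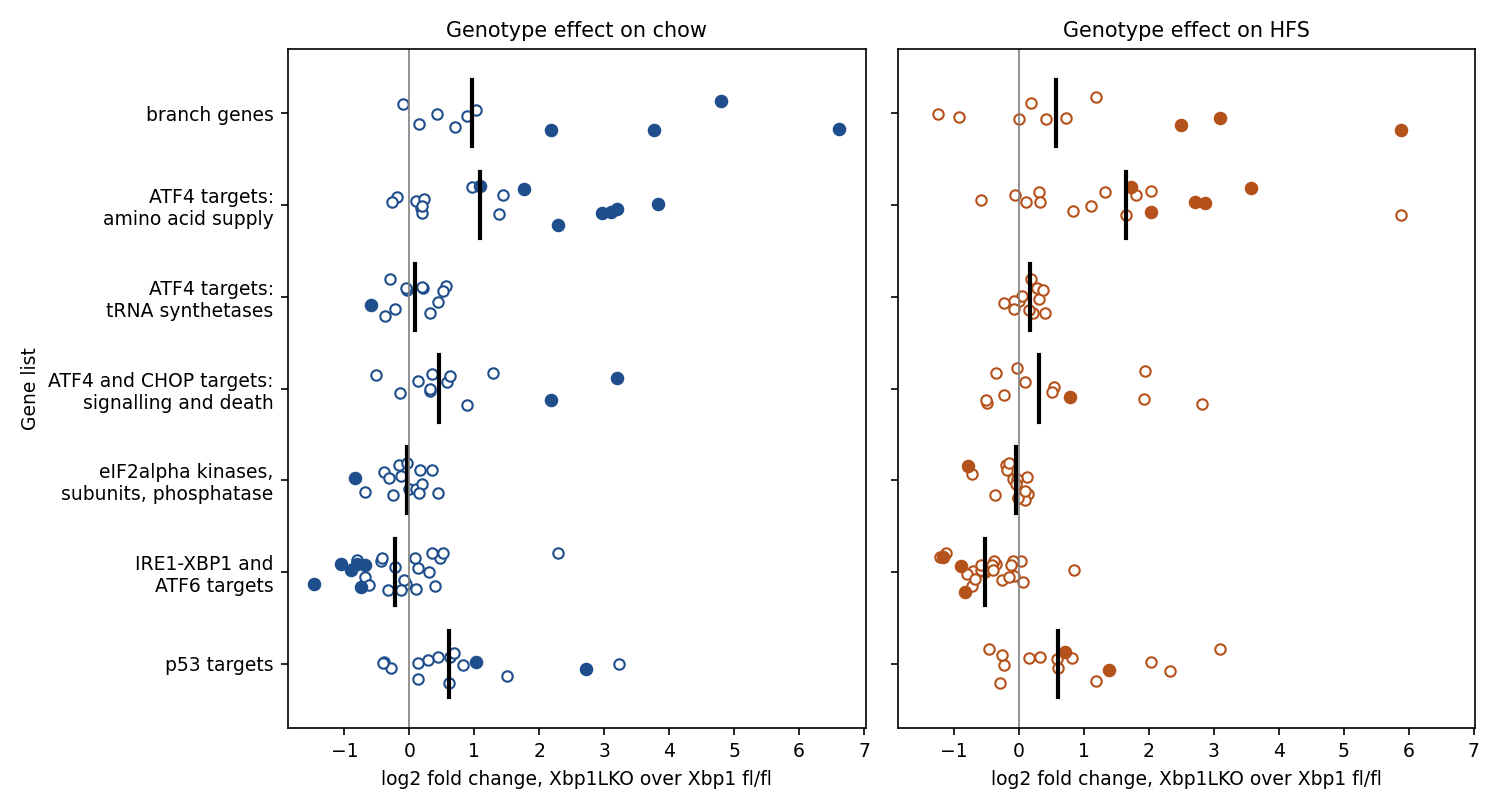
Log2 fold change of *Xbp1*LKO over *Xbp1* fl/fl for each tested gene (points) of 7 gene lists (rows), on chow (left) and the HFS diet (right). Filled points passed an edgeR adjusted p of 0.05, and black bars are list medians, 1.08 on chow and 1.64 on the HFS diet for amino acid supply. The point of the amino acid list at 5.89 on the HFS diet is *Slc7a11*, also named after its values were seen, which has 0 counts in all HFS-fed controls, so its fitted value is no measure of size.

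Over the 11 libraries the log2 CPM of *Ddit3* ran closest to that of *Atf3* (Pearson r = 0.978), *Nupr1* (0.965) and *Trib3* (0.962) among the members. With *Chac1* the value was -0.01 and with *Ddit4* -0.18. The genotype effect on *Chac1* had opposite signs on the diets, which a single r over all libraries does not show. Among 11120 other genes, those most like *Ddit3* were *Psat1* (0.970), *App* (0.960), *Hspa9* (0.959), *Pum3* (0.954) and *Taf15* (0.951). Those most like *Atf3* were *Acot2* (0.964), *Rcc2* (0.949), *Rap1gap2* (0.947), *Psat1* (0.942) and *Pum3* (0.940). Genes that followed *Trib3* closely included *Cyb5r1* (0.968), *Sars* (0.9675), *Acsl4* (0.959) and *App* (0.959). Those most like *Atf4* included *Gmeb2* (0.956), *Phf5a* (0.925), *Rps7* (0.914) and *Gigyf1* (0.911). These values describe libraries that share groups and preparation, the second chow-fed *Xbp1*LKO library lies at the end of most of them, and they carry no test.

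Markers of other cells moved in part with the groups. On chow the 15 macrophage markers summed to 101.8, 23.98 and 24.6 CPM in *Xbp1* fl/fl against 27.1 and 40.4 CPM in *Xbp1*LKO hepatocytes. The first of these controls, also the highest on chow for the lists of endothelial and stellate markers, stood apart. Both *Xbp1*LKO macrophage sums lay above those of the second and the third control. The HFS sums were 63.7, 50.1 and 44.7 CPM against 64.6, 70.7 and 114.2 CPM. All 15 had a log2 fold change below 0 for genotype on chow (median -0.55) and above 0 on the HFS diet (median 0.64), as for diet in *Xbp1*LKO (median 1.31). In these comparisons 0 were called, beside 4.75%, 4.08% and 0.0601% of all genes. The most abundant was *Cd5l*, at 3.76 to 23.8 CPM. The third HFS-fed *Xbp1*LKO library was the highest of its group both for these and for *Ddit3*, *Atf3* and *Nupr1*, and the part of such cells in the values of the branch was not tested. The 12 endothelial markers, led by *Stab2* (9.83 to 38.4 CPM), summed on chow to 125.2, 51.6 and 64.4 CPM in controls against 39.4 and 31.8 CPM with the deletion, and with HFS feeding to 162.9, 98.1 and 135.1 CPM against 131.1, 88.2 and 82.3 CPM. All 12 had a log2 fold change below 0 on both diets (medians -1.29 and -0.36). On chow and on the HFS diet 0 were called, beside 4.75% and 4.08% of all genes. Averaged over diets 3 were called lower, beside 6.64% of all genes. The stellate markers, led by *Ecm1* (4.565 to 20.5 CPM) and with *Acta2* at no more than 10 counts, summed on chow to 62.3, 18.4 and 23.7 CPM against 13.6 and 16.1 CPM, and with HFS feeding to 58.6, 39.65 and 32.6 CPM against 77.9, 47.9 and 37.7 CPM. All 10 tested were below 0 on chow (median -1.16), 7 were above 0 on the HFS diet (median 0.37), and 0 were called, beside 4.75% and 4.08% of all genes. Every tested marker of both lists had a diet effect above 0 in each genotype. The medians in *Xbp1* fl/fl and *Xbp1*LKO were 0.76 and 1.55 for endothelial and 0.49 and 2.27 for stellate markers. Of these markers 0 were called, beside 0.428% and 0.0601% of all genes, shares so low that 0 calls say little about the shifts. The part of both lists in the values of the branch was not tested. The remaining lists were 10 cholangiocyte markers (18.7 to 36.85 CPM) and 12 markers of lymphocytes and neutrophils (0.498 to 7.13 CPM, led by *Ptprc*). Of 3 cholangiocyte markers tested, 1 was called lower on chow (3.02% of all genes) and averaged over diets (6.64%). This was *Sox9*, named after its values were seen, with log2 fold changes of -1.54 and -1.16. It was not called on chow without the first or the second chow-fed *Xbp1*LKO library, at -1.39 and -1.71. The 3 lymphocyte and neutrophil markers that were tested were above 0 for genotype on chow (median 1.68) and on the HFS diet (median 1.54). Of these 0 were called, beside 4.75% and 4.08% of all genes. This list's highest sum was in the third HFS-fed *Xbp1*LKO library, which was also the highest of its group for *Ddit3*, and its part in the values was not tested. Among both lists *Krt19*, *Krt7* and *Cd3e* had no more than 10 counts in any library. Hepatocyte markers summed to 208800 to 228400 CPM in controls on chow, against 123000 and 86760 CPM with the deletion. With HFS feeding the sums were 178400 to 190300 CPM in controls and 135900, 100100 and 108500 CPM with the deletion. Of the 25 markers, 23 had a log2 fold change below 0 on chow (median -0.53) and 22 on the HFS diet (median -0.52). On chow 3 were called lower (3.02% of all genes) and on the HFS diet 2 (2.16%), with 0 higher. Averaged over diets 9 were called lower (6.64%) and 1 higher (5.25%). The second chow-fed *Xbp1*LKO library, the lowest for these markers, was the highest for *Ddit3*, and the part of this loss in the values of the branch was not tested.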

How the data were processed

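The authors deposited whole-number read counts per Ensembl gene for each library, not normalized and with genes without counts kept. The paper names kallisto with tximport, while the submitters' processing notes name cutadapt 1.13, STAR and HTSeq 0.6.1p1 with mm10. According to the paper the library kit was stranded, but the strand setting of the counting is not given in the sources used here. Mitochondrial genes have 0 counts in every library, and the sources used here do not say at which step such reads were left out. Groups were taken from the sample labels, which do not say that replicates are independent beyond the pooling described, so p-values measure the spread between these libraries. After removal of low genes (filterByExpr with a minimum count of 10) and TMM scaling, all 11 libraries entered 1 quasi-likelihood fit with a term per group (edgeR 4.0.16, R 4.3.3), with Benjamini-Hochberg adjustment over 13303 genes and a threshold of 0.05. Standard errors were taken from the fold change and the F statistic.

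Alternatives were DESeq2 1.42.0, RLE size factors, library totals, no filter, a mean of at least 1 CPM, only the groups compared, a replicate block and each library left out. The code was tested on simulated counts. The members and gene lists (also immediate early genes, p53 and glucocorticoid targets, sensors of the response and bZIP partners) were chosen with earlier results of these data known. Genes named are the 10 members, *Xbp1*, *Tnfrsf10b*, the eIF2alpha kinases, *Ppp1r15b*, the 3 smallest p per list and comparison, marker genes and the 5 most similar genes of 4 members (log2 CPM, prior count 2), apart from those named after their values were seen; a few genes that this rule names are not reported here.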

Additional observations from a re-analysis of the deposited data

Results flagged for a closer look

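*Chac1* was the member whose genotype effect ran in opposite directions on the diets. Every chow-fed *Xbp1*LKO library was above every control (9.002 and 13.8 against 4.23 to 8.03 CPM), and every HFS-fed one below (6.17 to 9.33 against 11.6 to 16.0 CPM). The difference between the diets was -1.82 on the log2 scale (SE 0.38, unadjusted p of 5.4e-04, edgeR adjusted p = 0.603). It ranged from -2.10 to -1.48 over the fits that left out a library, and it was called by DESeq2 and without the filter on low counts. Of all genes tested, 0.398% had groups that did not overlap on either diet, higher on chow and lower on the HFS diet. Groups of 2 or 3 libraries allowed little more than leaving each library out as a check of single outlying libraries.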

How the results depend on the processing

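*Nupr1* was called on both diets under all 18 alternatives and *Atf3* on chow; *Ddit3* and *Trib3* were called averaged over diets in all 17 run. Members called rose from 4 to 8 on chow with library totals and to 7 without a filter. On the HFS diet they rose from 3 to 7 without a filter. With only the groups compared they rose to 5 there, and the count over all genes for that fit is not given here. Averaged over diets they rose from 5 to 8 with library totals. The counts over all genes for the other settings follow below. In the diet and interaction comparisons, from 0, DESeq2 called 1 in each, and no filter called 1 in *Xbp1* fl/fl, 7 in *Xbp1*LKO and 4 in the interaction. Leaving out a library gave 2 to 6 members on chow, 1 to 5 on the HFS diet and 0 to 2 for diet in *Xbp1*LKO.

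Over all genes, DESeq2 called 1115 on chow (main 632), 981 on the HFS diet (543), 175 and 208 for diet in *Xbp1* fl/fl (57) and *Xbp1*LKO (8), and 31 in the interaction (0). Library totals called 3000 on chow, 1483 on the HFS diet and 5802 averaged (1582); 2685, 1288 and 5304 of these were higher, against 230, 256 and 699 with TMM. No filter called 1507, 1438, 499, 722 and 269 in the order of DESeq2. Only the groups compared gave 233 on chow and 0 for diet in *Xbp1*LKO. A library left out gave 69 to 762 on chow (69 without the second *Xbp1*LKO library), 184 to 662 on the HFS diet, 846 to 1735 averaged, 6 to 59 for diet in *Xbp1* fl/fl and 0 to 36 in *Xbp1*LKO. The cause was not tested.

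Reversed values included those of *Atf5* on chow (-0.0175 to 1.62 with a library left out), *Sesn2* on chow (-0.43 to 1.32) and averaged (-0.0028 to 0.87), *Ddit4* on chow (0.26 with library totals, -1.44 to 0.59), *Chac1* averaged (0.28 with library totals, -0.19 to 0.11), *Ppp1r15a* on the HFS diet (-0.0068 with DESeq2, -0.0047 with RLE size factors, -0.0791 to 0.11), and *Ddit3* for diet in *Xbp1*LKO (-2.43 to 0.0667) and the interaction (-2.04 to 0.45). Without the second chow-fed *Xbp1*LKO library the diet effect in *Xbp1*LKO also turned positive for *Trib3* (0.16), *Atf5* (0.36) and *Ddit4* (0.13). The interaction then turned positive for *Atf3* (0.22), *Trib3* (0.25), *Nupr1* (0.73), *Atf5* (0.74), *Sesn2* (0.85) and *Ddit4* (0.19).

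The replicate numbers of the labels did not pair the libraries: 15 same-numbered pairs had a mean correlation of deviations of -0.01 and 4 were over 0.1. With the replicate block 4 members were called on chow, 2 on the HFS diet (*Ddit3* lost) and 4 averaged (*Atf5* lost), and 455, 412, 1356, 38, 19 and 0 genes over the 6 comparisons. The number of the second chow-fed *Xbp1*LKO library was taken from its title, while its file is numbered 3. With that number, an alternative chosen after seeing the data, the mean correlation was -0.01, *Ddit3* kept its HFS call, *Atf5* averaged was lost, members called were 4, 3 and 4, and genes called were 488, 429, 1372, 40, 53 and 0.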

Other observations

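Of 15 p53 targets, 2 were called higher on chow, 2 on the HFS diet and 8 averaged over diets, with 0 lower, where 1.73%, 1.92% and 5.25% of all genes were called higher; without the second chow-fed *Xbp1*LKO library these were 0, 7 and 4 (0.498%, 4.78% and 6.11% of all genes called in either direction), and without the first 7, 7 and 10 (5.48%, 4.75% and 11.9%). *Bax*, which encodes a death effector of mitochondria, gave 10.5 to 12.1 CPM in HFS-fed *Xbp1* fl/fl and 17.9 to 19.2 CPM in HFS-fed *Xbp1*LKO libraries (log2 fold change 0.71, SE 0.16, edgeR adjusted p = 0.037). *Cdkn1a*, the cell cycle inhibitor p21, stood at 2.52 averaged over diets (SE 0.47, edgeR adjusted p = 0.0051).

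Of 14 tested factors that can pair with ATF4 or CHOP, 0 were called on chow, and *Cebpe* and *Nfe2l2* on the HFS diet, beside 4.75% and 4.08% of all genes. *Cebpe* gave 1.715, 2.70 and 4.80 CPM in HFS-fed *Xbp1* fl/fl and 14.6, 11.1 and 13.6 CPM in HFS-fed *Xbp1*LKO libraries (2.09, SE 0.36, edgeR adjusted p = 0.0093). On chow it gave 10.3, 12.95 and 5.43 CPM in *Xbp1* fl/fl and 7.21 and 6.60 CPM in *Xbp1*LKO libraries (-0.47, edgeR adjusted p = 0.562), so that the HFS-fed controls were below all other libraries (diet effect in *Xbp1* fl/fl -1.63, edgeR adjusted p = 0.1045). *Nfe2l2*, which encodes NRF2 of the antioxidant response, stood at 0.59 (SE 0.12, edgeR adjusted p = 0.019). Of 19 tested immediate early genes, 1 was called on chow (*Myc*, 3.02, edgeR adjusted p = 0.049), 1 on the HFS diet (*Klf6*, 1.22, edgeR adjusted p = 0.0046) and 3 averaged, all higher, beside 1.73%, 1.92% and 5.25% of all genes called higher; without either chow-fed *Xbp1*LKO library 0 were called on chow. Of 14 glucocorticoid targets, *Tsc22d3* was called lower on chow (-1.41, SE 0.27, edgeR adjusted p = 0.014), 0 were called on the HFS diet and 2 were lower averaged, beside 3.02%, 2.16% and 6.64% of all genes called lower; without the second chow-fed *Xbp1*LKO library 0 were called on chow (0.498% of all genes). Of 8 sensors and transcription factors of the unfolded protein response, *Xbp1* was the only one called, lower on both diets (3.02% and 2.16% of all genes called lower); without the first or without the second chow-fed *Xbp1*LKO library it was not called on chow, at -0.68 and -1.10 (5.48% and 0.498% of all genes called). Without the first, *Ern1*, which encodes the sensor IRE1alpha, was called higher on chow (0.88, SE 0.22, edgeR adjusted p = 0.045) and averaged over diets (0.48, SE 0.14, edgeR adjusted p = 0.048).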
